A study of Mus musculus with 6 samples.

Results

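The 10 genes described here mark pregranulosa cells, the somatic cells of the fetal and newborn ovary that gather around oocytes and later become the granulosa cells of the follicle. They are Foxl2, Amh, Amhr2, Wnt4, Rspo1, Lgr5, Runx1, Nr5a2, Fshr and Irx3. Every probe that the platform annotation assigns to any of them was taken from the raw signal table, which gave 19 probes, for 10 of the 19057 genes named on the array. Foxl2, Amh, Rspo1 and Irx3 had 1 probe each, Wnt4, Lgr5 and Runx1 had 2, and Amhr2, Nr5a2 and Fshr had 3. The samples were total RNA of whole newborn ovary from mice of a C57BL/6/129S6/SvEv background. There were 4 arrays from the Sohlh1/Sohlh2 double knockout (numbered 1, 2, 3 and 5 in the titles) and 2 arrays from wildtype mice (numbered 2 and 3). Sohlh1 and Sohlh2 are germ cell transcription factors of the basic helix-loop-helix class, so the genes removed and the genes described here are known from different cells of the same organ. The labels do not say how the alleles were made, whether animals were pooled or whether the samples came from separate litters, so p-values here speak only of the spread between the samples, which may be technical.

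In the mouse ovary, RSPO1 and WNT4 are secreted signals that raise beta-catenin activity in the supporting cells, and LGR5 is a receptor for R-spondins. FOXL2 and RUNX1 are transcription factors that together keep the female identity of these cells, while NR5A2 is a nuclear receptor of granulosa cells and IRX3 a homeobox factor of pregranulosa cells. AMH signals through its own type II receptor, AMHR2. FSHR, the receptor of follicle-stimulating hormone, and AMH are textbook products of granulosa cells in growing follicles, which a newborn mouse ovary scarcely has. In RNA from whole ovary, fewer cells of a type and less RNA per cell cannot be told apart.

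The labelled tissue and the named cells were checked against these markers. A probe counted as detected where its detection p was under 0.05, and was tested where it was detected on at least 2 of the 6 arrays. Of the 19 probes, 13 were tested, which covered 8 of the 10 genes, and 10 of them were detected on all 6 arrays. Those 10 probes stood for Amhr2 (3 probes), Wnt4 (2), Rspo1, Lgr5, Runx1, Nr5a2 and Irx3. Amh was not detected on any array, and its raw signals were 58.2, 51.1, 53.2 and 51.0 in double-knockout arrays 1, 2, 3 and 5, against 56.3 and 55.1 in wildtype arrays 2 and 3. These ranges overlapped. The 3 Fshr probes were detected only once, 1 of them on double-knockout array 1, with raw signals of 46.0 to 63.4 in double-knockout arrays and 46.6 to 62.3 in wildtype arrays. A further probe of Lgr5 and a further probe of Nr5a2 were not detected on any array. Foxl2, the gene most used to name these cells, was detected on 2 of 4 double-knockout arrays and 1 of 2 wildtype arrays. Its single probe therefore lay at the edge of background, and the label rests here on the other genes.

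The promoters of Amhr2 and Runx1 are shown because these were the genes with a probe that passed the test. Each window runs from 250 bases before a start listed in the promoter table to 50 bases after it, 5′ to 3′ on the gene's strand, from RefSeq (GRCm38.p6). The table held windows for 8 of the 10 genes, 10 windows in all, with 2 each for Runx1 and Nr5a2. Capitals mark matches, on either strand, to the E-box CANNTG, the class of site bound by basic helix-loop-helix factors, to AAGGTCA, the site class of NR5A receptors, or to TGTGGT, that of RUNX factors. The windows are chr15:102445117-102445416 (plus strand) for Amhr2, chr16:92826025-92826324 (minus strand) for the distal Runx1 start and chr16:92697280-92697579 (minus strand) for the proximal one. The Amhr2 window and the proximal Runx1 window lie inside the annotated genes, so distances below are from these listed starts and not from the outer ends of the genes.
Amhr2: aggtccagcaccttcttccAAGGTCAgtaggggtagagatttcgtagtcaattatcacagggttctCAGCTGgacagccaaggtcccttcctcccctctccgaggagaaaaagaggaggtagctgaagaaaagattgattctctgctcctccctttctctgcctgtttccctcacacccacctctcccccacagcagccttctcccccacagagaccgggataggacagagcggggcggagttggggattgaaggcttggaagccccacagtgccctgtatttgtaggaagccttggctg
Runx1 distal: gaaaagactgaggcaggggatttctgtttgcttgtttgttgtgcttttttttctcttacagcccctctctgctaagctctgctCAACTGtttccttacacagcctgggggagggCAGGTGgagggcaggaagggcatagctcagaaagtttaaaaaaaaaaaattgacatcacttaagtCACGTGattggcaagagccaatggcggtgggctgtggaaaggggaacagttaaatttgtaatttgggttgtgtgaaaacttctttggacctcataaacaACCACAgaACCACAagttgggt
Runx1 proximal: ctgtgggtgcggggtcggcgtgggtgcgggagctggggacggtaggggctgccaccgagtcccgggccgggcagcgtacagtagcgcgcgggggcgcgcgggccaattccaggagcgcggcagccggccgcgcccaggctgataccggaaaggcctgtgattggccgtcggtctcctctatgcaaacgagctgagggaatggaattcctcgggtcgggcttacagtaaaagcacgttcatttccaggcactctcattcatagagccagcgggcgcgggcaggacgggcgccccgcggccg
The Amhr2 window held AAGGTCA, with its first base 231 bases before the start, and the E-box CAGCTG 184 bases before it. The distal Runx1 window held 3 E-boxes (CAACTG at 167 bases before the start, CAGGTG at 136 bases and CACGTG at 71 bases) and 2 copies of ACCACA, the reverse complement of TGTGGT, at 29 and 37 bases after it. The proximal Runx1 window held none of these letters. Among all 10 windows 6 held an E-box, 1 held AAGGTCA, 1 held TGTGGT and 0 held the forkhead motif GTAAACA. Over 32851 RefSeq windows of the same length the shares were 72.3%, 4.72%, 16.8% and 3.65%. These matches are a description of the letters, and no binding was measured. Which of the Runx1 starts each Runx1 probe reports on is not known here.

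The question was whether the transcripts of these somatic cells differ when the germ cell factors are absent. Signals are given as background-corrected, quantile-normalized log2 values, and a change is the double-knockout mean minus the wildtype mean. Of the 13 tested probes, 2 rose in the double knockout, 0 fell and 11 did not pass an adjusted p of 0.05. The probes that rose were 1 of Amhr2 and 1 of Runx1. Over all 21981 tested probes 3.65% were called higher and 3.62% lower, 7.27% in all. At an unadjusted p under 0.05, 5 member probes were higher and 1 was lower, where 12.1% of all tested probes were higher and 24.5% passed in either direction. The double-knockout arrays all lay above the wildtype arrays for 5 member probes and all below for 1, against 17.8% and 17.0% of all tested probes, and for the other 7 the groups overlapped. The 1 lower probe in both counts, a Runx1 probe, was detected on none of the 4 double-knockout arrays. It was tested only through its wildtype signal, and passing the filter this way favours a fall. With 4 arrays against 2, the smallest two-sided p of an exact permutation test is 0.0667, and the calls therefore depend on limma's pooled spread.

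**Figure D1:**
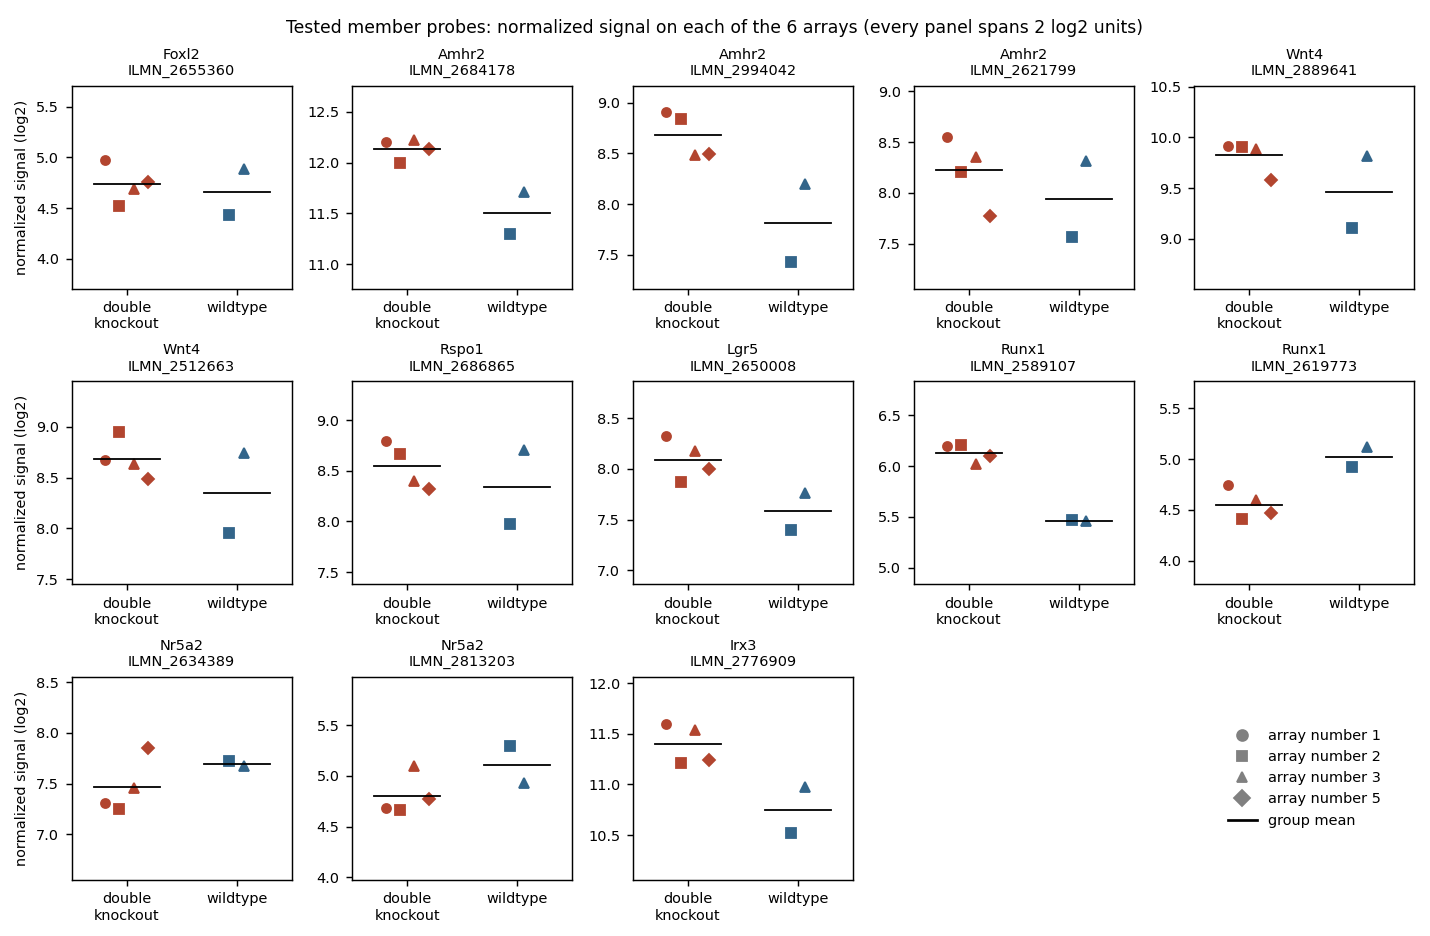
Normalized log2 signal of the 13 tested member probes on each array, with double-knockout arrays on the left and wildtype arrays on the right of every panel, symbols for the array numbers and a line at each group mean. Wildtype array 2 is the lowest point in 9 of the 13 panels, and the 2 Runx1 panels have changes of opposite sign.

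Amhr2, the AMH receptor, was read by 3 probes, all detected on all 6 arrays. Probe ILMN_2684178 gave 12.20, 11.99, 12.22 and 12.13 in double-knockout arrays 1, 2, 3 and 5, against 11.29 and 11.71 in wildtype arrays 2 and 3. All double-knockout arrays were above both wildtype arrays, and the change was 0.63 ± 0.16 (SE), 1.55-fold higher, with adjusted p = 0.0486. Probe ILMN_2994042 gave 8.91, 8.84, 8.48 and 8.50 in the double-knockout arrays, against 7.43 and 8.20 in the wildtype arrays. The groups did not overlap here either, and the change of 0.87 ± 0.23 (SE) had adjusted p = 0.0552. Probe ILMN_2621799 gave 8.55, 8.21, 8.36 and 7.78 in the double-knockout arrays, against 7.56 and 8.32 in the wildtype arrays. These groups overlapped, since wildtype array 3 was above double-knockout arrays 2 and 5, and the change was 0.28 (95% interval -0.30 to 0.87, adjusted p = 0.543).

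The changes of the 3 Amhr2 probes were not shown to differ from each other. The first minus the second probe was -0.23 (95% interval -0.71 to 0.24, adjusted p = 0.636), and the first minus the third was 0.35 (-0.15 to 0.85, adjusted p = 0.486). These p-values come from a limma fit of the within-array difference between 2 probes of a gene, made for all 6532 such pairs. The Amhr2 call ended when any 1 of the 6 arrays was left out (adjusted p = 0.0577 to 0.349), with changes of 0.43 without wildtype array 2 and 0.84 without wildtype array 3. It also ended with no filter (adjusted p = 0.0750) and with the mean of the gene's probes (0.0924).

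Runx1, which encodes the DNA-binding subunit of a core-binding factor and is also known from blood cell precursors, was read by 2 probes with changes of opposite sign. Probe ILMN_2589107, detected on all 6 arrays, gave 6.20, 6.21, 6.02 and 6.10 in double-knockout arrays 1, 2, 3 and 5, against 5.47 and 5.46 in wildtype arrays 2 and 3. All double-knockout arrays were above both wildtype arrays, and the wildtype arrays lay closer together than for any other tested member probe. The change was 0.67 ± 0.13 (SE), 1.59-fold higher, with adjusted p = 0.0210. Probe ILMN_2619773 gave 4.74, 4.41, 4.59 and 4.46 in the double-knockout arrays, against 4.92 and 5.12 in the wildtype arrays. It was detected on both wildtype arrays and on none of the 4 double-knockout arrays, so it was tested only through its wildtype signal. Against the lowest detected signal of each double-knockout array it was at least 1.21-fold lower, with a measured change of -0.47. It did not pass the test. Its p-value is not given, because passing the filter through wildtype alone favours a fall.

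Over all pairs, 35 of 6532, 0.536%, differed at an adjusted p under 0.05, and 69.8% had changes of the same sign, as did 4 of the 5 member pairs. The Runx1 pair was the member pair of opposite sign. Since the second Runx1 probe was detected on none of the double-knockout arrays, the size of the disagreement has no firm value, and no test of it is given. The mean of the 2 probes gave a change of 0.10 and was not called, but it includes that dim probe.

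The change of the first Runx1 probe was 0.64 to 0.70 with any 1 array left out, but 0.34 with no background correction and 0.41 with an offset of 50 or on the authors' values, where it still passed (adjusted p = 0.0302 to 0.0420). Its call ended without double-knockout array 1 (adjusted p = 0.0592), wildtype array 2 (0.160) or wildtype array 3 (0.113). Leukocyte and mast cell markers are given beside Runx1. Of 7 tested macrophage and leukocyte markers 0 rose and 0 fell in limma's test (1 higher at an unadjusted p under 0.05). The list median was 0.060, and 4 of the 7 changes were above 0. The summed level of the list, in which the brightest genes weigh most, was 3303 to 5371 in double-knockout arrays against 2237 to 3217 in wildtype arrays. The 2 tested genes of highest mean in this list, Laptm5 and Fcer1g, gave 0.77 (adjusted p = 0.0673) and 0.15 (0.875). Laptm5 passed with no background correction, the authors' values, a robust intensity trend or the replicate block by title number (adjusted p = 0.0382 to 0.0490). The pan-leukocyte gene Ptprc was not detected on any array. Of 6 tested mast cell markers 5 rose, led by the tryptase gene Tpsb2 at 3.41-fold, with a summed level of 11865 to 18441 in double-knockout arrays against 5209 to 5440 in wildtype arrays. Tpsab1 rose by 1.69 and Mcpt4 by 1.43 in log2. Without either wildtype array 3 mast cell markers were called. The part of these cells in the Runx1 values was not tested.

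**Figure D2:**
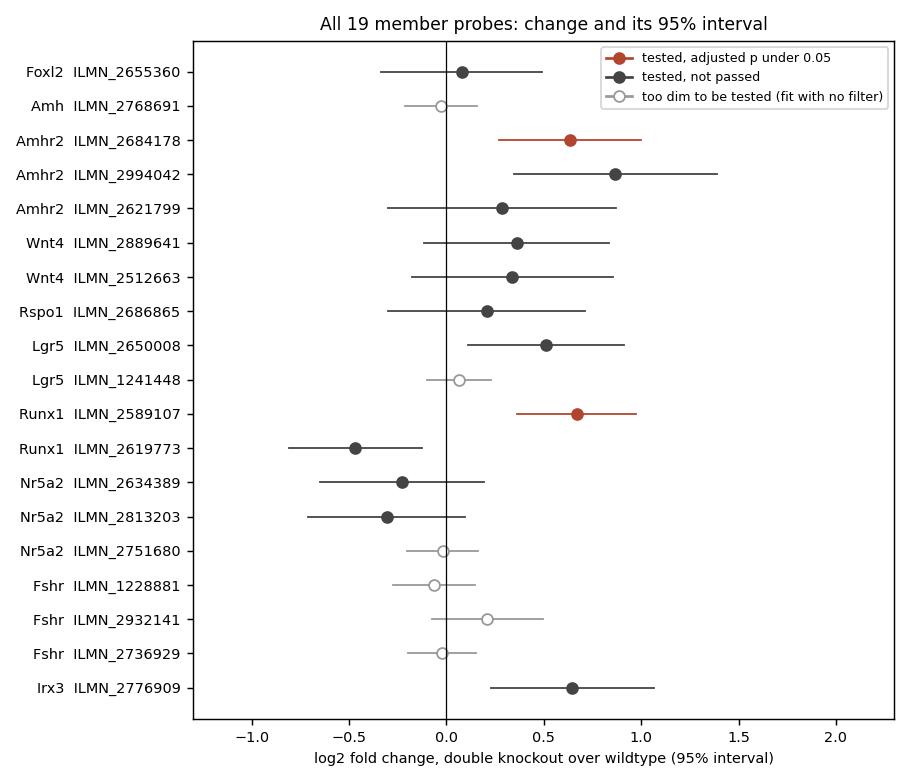
Log2 fold change (double knockout over wildtype) with its 95% interval for all 19 member probes, filled where tested and open where the probe was too dim to be tested and the value comes from a fit with no filter. The called probes are Amhr2 ILMN_2684178 at 0.63 and Runx1 ILMN_2589107 at 0.67, and the other Runx1 probe lies at -0.47.

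Irx3 had 1 probe, with 11.60, 11.21, 11.54 and 11.24 in double-knockout arrays 1, 2, 3 and 5, against 10.53 and 10.98 in wildtype arrays 2 and 3. The groups did not overlap, and the change of 0.65 ± 0.19 (SE), 1.57-fold, had adjusted p = 0.0691. Without wildtype array 2 the change was 0.42 and without wildtype array 3 it was 0.87. Irx5, which acts with it in the mouse ovary and was picked with its value known, had a difference of 0.34 (adjusted p = 0.529). Nr5a2 also had a probe detected on all 6 arrays. This probe, ILMN_2634389, gave 7.31, 7.25, 7.46 and 7.86 in the double-knockout arrays, against 7.72 and 7.67 in the wildtype arrays.

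Double-knockout array 5 was above both wildtype arrays for this Nr5a2 probe and the other double-knockout arrays were below them. The change was -0.23 (95% interval -0.65 to 0.19, adjusted p = 0.494). The dim probe ILMN_2813203, detected on 2 of 4 double-knockout arrays and on both wildtype arrays, gave -0.31 (-0.71 to 0.095, adjusted p = 0.329), and the 2 probes differed by 0.078 (-0.42 to 0.57). Both remained below 0 under all alternatives run. Foxl2 gave 4.98, 4.52, 4.69 and 4.76 in the double-knockout arrays, against 4.43 and 4.88 in the wildtype arrays. Its groups overlapped, and the change was 0.078 (-0.33 to 0.49, adjusted p = 0.833).

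Of Wnt4, Rspo1 and Lgr5, which encode a WNT ligand, an R-spondin and an R-spondin receptor, Wnt4 was read by 2 probes that ran together. Probe ILMN_2889641 gave 9.92, 9.90, 9.89 and 9.58 in double-knockout arrays 1, 2, 3 and 5, against 9.10 and 9.82 in wildtype arrays 2 and 3. Probe ILMN_2512663 gave 8.67, 8.95, 8.63 and 8.49 in the double-knockout arrays, against 7.95 and 8.75 in the wildtype arrays. For both probes wildtype array 3 lay among the double-knockout arrays and wildtype array 2 below them all. The changes were 0.36 (95% interval -0.11 to 0.84, adjusted p = 0.332) and 0.34 (-0.18 to 0.85, adjusted p = 0.404), and they differed by 0.023 (-0.32 to 0.37).

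Rspo1 gave 8.79, 8.66, 8.40 and 8.32 in the double-knockout arrays, against 7.97 and 8.70 in the wildtype arrays. Here too the groups overlapped, with a change of 0.21 (-0.30 to 0.71, adjusted p = 0.620). Lgr5, at its detected probe ILMN_2650008, gave 8.33, 7.87, 8.17 and 7.99 in the double-knockout arrays, against 7.40 and 7.76 in the wildtype arrays. All double-knockout arrays were above both wildtype arrays, and the change was 0.51 (0.11 to 0.91, adjusted p = 0.117).

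The 2 wildtype arrays differed from each other in these genes. Wildtype array 3 was above wildtype array 2 for 10 of the 13 tested member probes, against 50.1% of all tested probes, and the median difference was 0.45, against 0.00055 over all tested probes. Wildtype array 2 was the lowest of the 6 arrays for 9 of the 13, against 21.3% of all. The wildtype arrays differed by 0.72 and 0.80 for the Wnt4 probes and by 0.73 for Rspo1, more than the whole range of the double-knockout arrays (0.34, 0.46 and 0.47). Without wildtype array 2 the change was 0.00073 and -0.060 for the Wnt4 probes, -0.16 for Rspo1 and -0.093 for the third Amhr2 probe. Without wildtype array 3 the same changes were 0.72, 0.73, 0.57 and 0.66. The first Runx1 probe had 5.47 and 5.46 in wildtype arrays 2 and 3 and does not follow this pattern.

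**Figure D3:**
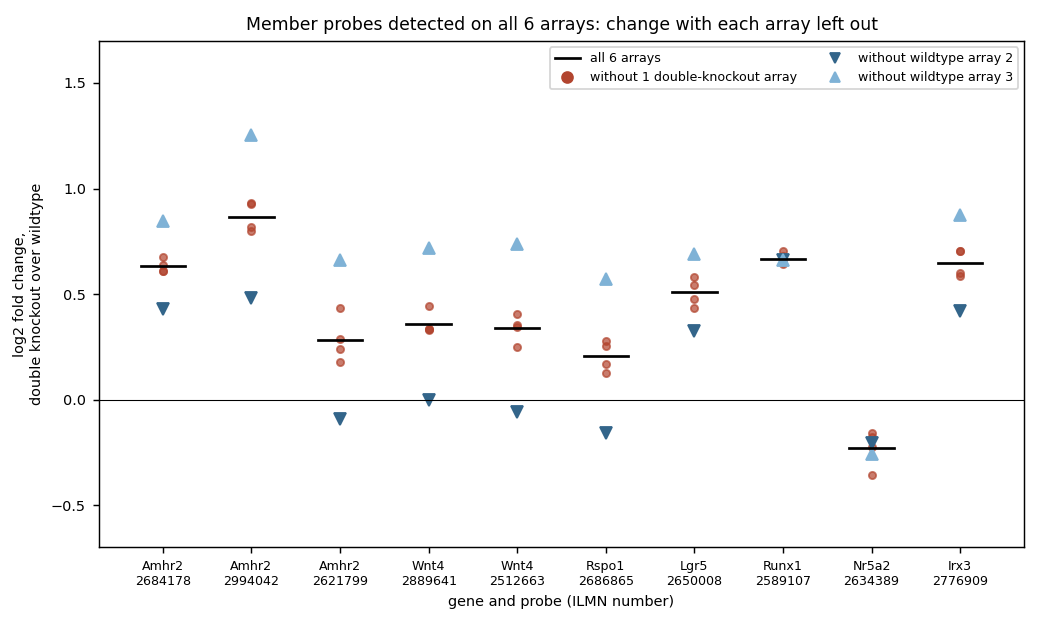
Log2 fold change (double knockout over wildtype) of the 10 member probes detected on all 6 arrays, with a line for the value from all arrays, circles for fits without 1 double-knockout array and triangles for fits without a wildtype array. The wildtype triangles lie far apart for Wnt4, Rspo1 and Amhr2 and close together for Runx1 and Nr5a2.

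The same WNT and AMH pathways were followed through further genes, each read from its brightest tested probe. Of 33 tested WNT and R-spondin pathway genes, 1 fell, 0 rose and 32 did not pass, with a list median of -0.046 against 0.025 over all 12163 genes, of which 8.39% were called, 4.79% higher and 3.59% lower. At an unadjusted p under 0.05, 3 were higher and 6 lower, where 12.1% of all tested probes were higher and 24.5% passed in either direction. The same shares of all probes are the background for the unadjusted counts of the lists below. The gene that fell was Rspo2, an R-spondin that in mice is known as a product of oocytes. It gave 5.44, 5.57, 5.11 and 4.68 in double-knockout arrays 1, 2, 3 and 5, against 7.97 and 7.26 in wildtype arrays 2 and 3, and was detected on 3 of the 4 double-knockout arrays. The change was -2.41 ± 0.28 (SE), 5.33-fold lower (adjusted p = 0.00172), or -1.47 with no background correction. Its call held with any 1 array left out (-2.77 to -2.04, adjusted p up to 0.0336), and another Rspo2 probe was not detected on any array. Axin2, a common readout of beta-catenin activity, is named with its value known. It gave 10.45, 10.18, 10.28 and 10.25 in double-knockout arrays against 9.87 and 9.70 in wildtype arrays, a change of 0.51 with adjusted p = 0.0654.

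Of 10 tested components of AMH signalling beyond the ligand and its own receptor, 1 rose, 0 fell and 9 did not pass, with a list median of -0.024. The gene that rose was Id2, an inhibitor of basic helix-loop-helix factors and a common target of SMAD proteins, with a change of 0.75 ± 0.15 (SE) and adjusted p = 0.0225. Id2 was not called with the replicate block by title number (adjusted p = 0.138) or by description number (0.0634). Another Id2 probe gave -0.21 (adjusted p = 0.497), and the call ended without wildtype array 2 (adjusted p = 0.211), wildtype array 3 (0.0798) or double-knockout array 1 (0.0621). Of 14 other tested transcription factors of the gonadal soma, 0 rose and 0 fell in limma's test, with 2 higher and 3 lower at an unadjusted p under 0.05 and a list median of -0.14. Gata6, a GATA factor of the gonad, gave -0.15 (95% interval -0.46 to 0.17), and Cbfb, the partner subunit of RUNX1, gave -0.23 (-0.61 to 0.14).

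Among 11 other tested pregranulosa and granulosa markers, 4 were called higher, 0 lower and 7 in neither direction, and the list median was 0.43. Kctd14, a pregranulosa marker, gave 12.84, 12.75, 11.82 and 13.15 in double-knockout arrays 1, 2, 3 and 5, against 11.13 and 11.27 in wildtype arrays 2 and 3. Its change was 1.44 ± 0.32 (SE), 2.71-fold higher (adjusted p = 0.0296), and its other probes gave 1.25 (adjusted p = 0.0744) and 2.26 (0.0183). The call of this brightest Kctd14 probe ended with no filter, a robust intensity trend or the replicate block by title number. It also ended without double-knockout array 1 or 2 (adjusted p = 0.0597 to 0.113 over these settings). The estradiol-forming enzyme gene Hsd17b1 rose by 1.08, and Gja1, which encodes a gap junction connexin, rose by 0.91. Without wildtype array 2 adjusted p was 0.214 for Kctd14, 0.0830 for Hsd17b1 and 0.123 for Gja1, and 0 of the 11 were called. The count of called genes was 1 without wildtype array 3, 2 without double-knockout array 1 or 2, and 3 or 4 without another double-knockout array. The fourth, Gng13, a G protein gamma subunit named after its value was seen, rose by 0.73 (adjusted p = 0.0314). With no filter 2 of 13 genes of this list were called higher, and with the replicate block by title number 1 of 11 was.

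**Figure D4:**
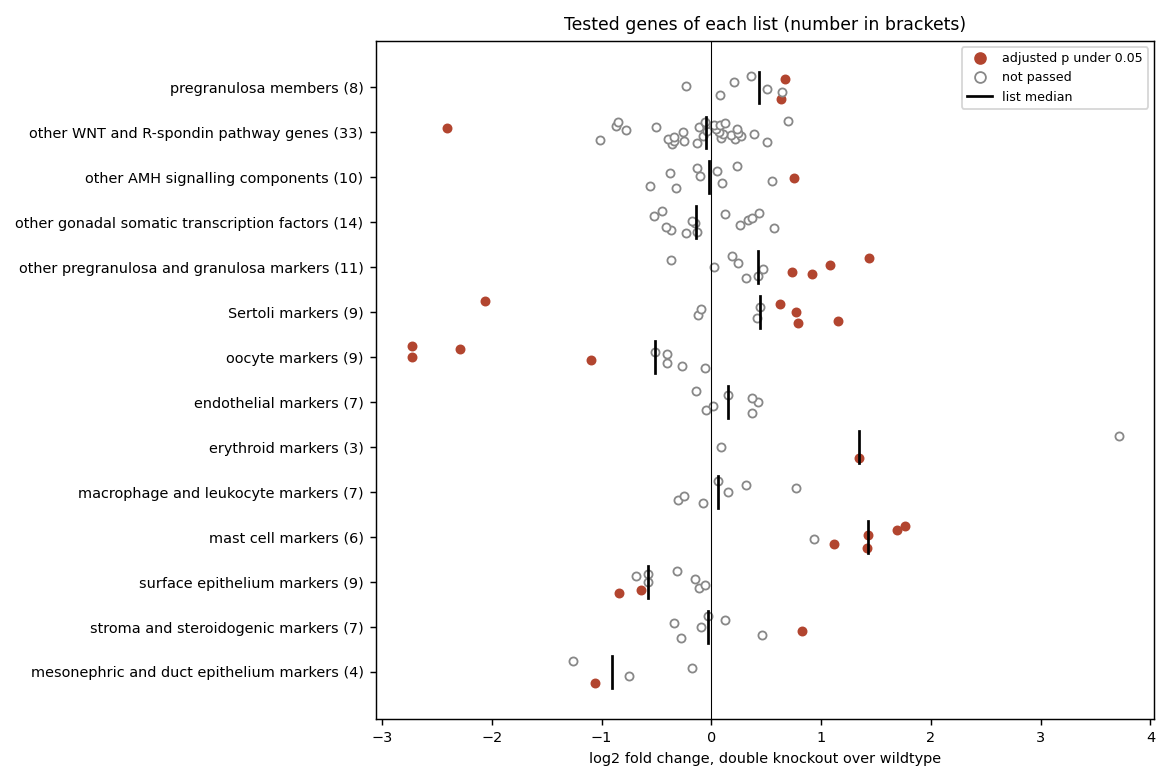
Log2 fold change (double knockout over wildtype) of every tested gene in the member list and in the pathway and marker lists, filled where the adjusted p was under 0.05, with a line at each list median. The other pregranulosa and granulosa markers have a median of 0.43 and the WNT pathway list a median of -0.046, with Rspo2 far to the left at -2.41.

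Markers of other cells that the tissue could hold are given beside the members. Of 9 tested Sertoli markers, which belong to the supporting cells of the testis, 4 rose and 1 fell, with a list median of 0.44 and a summed level of 5648 to 7059 in double-knockout arrays against 3924 to 4120 in wildtype arrays. The cystatin gene Cst9 rose by 1.15 and Aard rose by 0.79. The others called higher were Gdnf and Sox9, named after their values were seen. Tesc, whose product binds calcium, gave -2.06 (adjusted p = 0.000694). Sry was not detected on any array, and 0 of the 9 were called higher with wildtype array 2 or 3 left out. With double-knockout array 1 left out, 1 was called higher. Of 9 tested oocyte markers 4 fell and 0 rose, with a list median of -0.52 and a summed level of 3545 to 6500 in double-knockout arrays against 9091 to 11553 in wildtype arrays. Gdf9 (-2.73), Zp3 (-2.73) and Zp1 (-2.29), a growth factor and zona proteins of oocytes, had the largest falls in that list, and Zp2 was not detected on any array. Without either wildtype array 1 oocyte marker was called lower.

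Surface epithelium and mesonephric duct, other tissues of the ovary region, were followed by lists of their own. Of 9 tested surface epithelium markers 2 were called lower and 0 higher, with a list median of -0.57 and a summed level of 5527 to 8185 in double-knockout arrays against 7735 to 8656 in wildtype arrays. Bnc1, a zinc finger factor of epithelia, gave -0.85 (adjusted p = 0.0133, or 0.159 without wildtype array 2). The other, Gpm6a, a membrane glycoprotein, was detected on none of the 4 double-knockout arrays. Gpm6a was so tested only through its wildtype signal, which favours a fall. It was at least 1.29-fold lower (adjusted p = 0.0278), and the call ended with no background correction, an offset of 50, 75th percentile scaling or the authors' values (0.0575 to 0.0857). The Gpm6a call also ended without double-knockout array 1, 2 or 3 (0.0507 to 0.0512). With the replicate block by title or description number it ended too (0.104 and 0.0923). Of 4 tested mesonephric and duct markers 1 fell (Cdh16, a cadherin of duct epithelium, -1.06), with a summed level of 355 to 566 in double-knockout arrays against 834 to 1029 in wildtype arrays, and Pax2 and Ehf were not detected on any array. In the stroma and steroidogenic list 1 of 7 rose (Cyp17a1, an enzyme of androgen synthesis, 0.83), with summed levels of 20394 to 24435 in double-knockout arrays against 23942 to 24161 in wildtype arrays. Of 7 endothelial markers 0 rose and 0 fell in limma's test (3 higher at an unadjusted p under 0.05), with Esam at 0.42 and Emcn at -0.051, both proteins of vessel walls. Of 3 erythroid markers 1 rose (Alas2, a heme enzyme, 1.34), a call that ended with no filter, a robust intensity trend, or without double-knockout array 1 or 3 or either wildtype array (adjusted p = 0.0633 to 0.223). Without wildtype array 2, 0 markers of the surface epithelium, duct, stroma and erythroid lists were called, and without wildtype array 3 only 1 was, in the surface epithelium list. The Alas2 call also ended with the replicate block by title number (adjusted p = 0.0628). The part of each of these cell types in the member values was not tested.

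The genotype and array quality were checked for the series as a whole. Sohlh1 was lower by both of its probes in the double knockout (-3.30 and -3.33), still detected on all 4 double-knockout arrays, and the single Sohlh2 probe was detected on 0 of 4 double-knockout arrays and 1 of 2 wildtype arrays. The position of these probes in the deleted genes is unknown here, and a probe outside the deletion checks nothing. The arrays detected 20124 to 20331 of 45281 probes in the double knockout and 20459 to 20594 in wildtype, and correlated across tested probes at 0.980 to 0.989 within the double knockout, 0.990 within wildtype and 0.969 to 0.980 between genotypes. Before normalization the 75th percentile of the raw signals was 165.8 and 152.8 in wildtype arrays 2 and 3. In double-knockout arrays it was 131.6 (array 1) to 144.9. The part of this difference in the member values was not tested. The precision of all values is limited by the number of arrays.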

How the data were processed

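Newborn ovary RNA from 4 double-knockout and 2 wildtype samples was read on 1 slide of Illumina mouse BeadChips. The submitters' processing notes name GenomeStudio, and its version is not given in the sources used here. The raw table deposited by the authors holds a signal intensity per probe, neither background-subtracted nor normalized as its values show. Beside it lies a detection score deposited by the authors, which rises with the signal and was read as 1 minus the detection p. The authors' series matrix holds linear, quantile-normalized intensity values and served as an alternative.

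Background was corrected by normexp from the detection p (nec, limma 3.58.1, R 4.3.3) with an offset of 16, followed by quantile normalization between arrays and log2 transformation. Probes with detection p under 0.05 on at least 2 of 6 arrays were tested (21981 of 45281) with lmFit and eBayes, without covariates, and Benjamini-Hochberg adjustment over all of them at 0.05. Agreement between probes was tested by the same fit on within-array differences between the probe of highest mean and each other tested probe of a gene (6532 pairs). A summed level adds the linear normalized signals of a list's tested genes. Probes were named from the platform annotation (34885 with 1 gene symbol, 18 with several, 10378 unnamed here). The fits were tested on simulated data with 50 changed probes at each size. The simulated noise was independent between probes, with no shift shared by an array, so the shares below need not hold for the real arrays. In the simulation 14% of 1.5-fold, 60% of 2-fold and 94% of 4-fold changes were recovered, and 4.32% of calls were false. A probe that did not pass is therefore not shown to be unchanged.

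The members and lists were chosen with earlier results of these data known. All members were named. From each other list up to 3 called genes with the largest change were named, or the 2 of highest mean where none was called. List genes not detected on any array could also be named. Other genes outside this rule, apart from the targeted Sohlh1 and Sohlh2, are said to be named after their values were seen. Alternatives changed the background correction, offset, normalization, source table, filter, variance model, array weights, replicate block, summary of a gene's probes and each array in turn.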

Additional observations from a re-analysis of the deposited data

Results flagged for a closer look

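Wnt4 probe ILMN_2889641 had 9.58 in double-knockout array 5, set apart below the other double-knockout arrays (9.89 to 9.92) by more than Dixon's 95% critical value for 4 samples. This check was made for 13 member probes, and chance flags about 1 in 20 groups. The other Wnt4 probe was also lowest in array 5 among the double-knockout arrays (8.49), without passing the check.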

How the results depend on the processing

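The number of member probes called higher was 2, and it was 4 with no background correction, an offset of 50, the authors' values or a robust intensity trend, 1 with no filter, 0 with the mean of a gene's probes, and 0 to 1 with an array left out. No member probe was called lower under any alternative run. Over all probes 1598 were called, and 224 to 1458 with an array left out. Probe pairs that disagreed numbered 35, and 174 with no background correction, 159 with an offset of 50, 147 with the authors' values, 282 with no filter (of 15828 pairs) and 0 to 15 with an array left out. Changes that turned sign were all uncalled: Foxl2 ranged from -0.14 to 0.30 with an array left out, the third Amhr2 probe from -0.093 to 0.66, Rspo1 from -0.16 to 0.57 and the second Wnt4 probe from -0.060 to 0.73. Title and description numbers are shared by both genotypes for 2 samples each, too few to show pairing. Deviations of same-numbered arrays from their group means correlated at -0.10 and -0.032 by title and -0.11 and 0.10 by description. The 2 wildtype arrays deviate oppositely from their mean. The values -0.10 and 0.10, both of double-knockout array 2, therefore mirror each other by construction. With the replicate block by title number 888 probes and 0 member probes were called and Foxl2 gave -0.052, and with the block by description number 1297 probes were called and 7 probe pairs disagreed. By description number the first Amhr2 probe was no longer called (adjusted p = 0.138, and 0.152 by title) and the second was (0.0293), and the first Runx1 probe kept its call by description number (0.0463) but not by title (0.125). With no background correction the list median was 0.22 for Sertoli markers (0.44 in the reported fit), -0.31 for surface epithelium (-0.57) and -0.51 for mesonephric and duct markers (-0.91), and an offset of 50 or the authors' values gave 0.26 to 0.27, -0.36 to -0.31 and -0.62 to -0.59. The causes of these shifts were not tested. Depth of signal limits Foxl2, Amh, Fshr, the second Runx1 probe and Nr5a2 probe ILMN_2813203, which lay at or near background. The first Runx1 probe was detected on all 6 arrays but was also dim. Its raw signals were 100.5 to 110.4 in double-knockout arrays against 83.7 to 87.3 in wildtype arrays.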
